A study of Rattus norvegicus with 4 samples.

Results

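The transcription factors that set the layer identity of cortical projection neurons were followed in neonatal rat cortex after prenatal exposure to bisphenol A (BPA). They were chosen by name as Cux1, Cux2, Bcl11b, Fezf2, Tbr1, Foxp2, Tle4, Pou3f2 and Sox5, and a gene was kept where its symbol stood on a row of the expression tables. By this rule 8 of the 9 genes were found among 17419 rows. Cux1 had no row under its symbol, and 8 rows of assembled transcripts annotated to it are described separately. Of the 8 genes, 6 mark deep layers (Bcl11b, Fezf2, Tbr1, Foxp2, Tle4 and Sox5) and 2 mark upper layers (Cux2 and Pou3f2).

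Wistar dams, named Wistar Furth in the study's methods, received 5000 µg/kg of body weight of BPA, or the vehicle, every day from gestational day 1 to birth. By the labels, frontal cortex was taken from pups on postnatal day 1. The study's methods name the prefrontal cortex and give the age as a range from that day to the next. The 4 groups were control males, BPA males, control females and BPA females, with 1 RNA-seq library each. The study's methods name several pups of each sex and treatment, but the sources used here do not say whether a library pools them. All libraries came from pups of gavaged dams, and the vehicle was ethanol in corn oil.

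Projection neurons of the neocortex are born in order, deep layers first and upper layers last. Fezf2 and Bcl11b act in one line to specify subcerebral neurons of layer V, Tbr1 and Sox5 restrain that fate in the corticothalamic neurons of layer VI, and Cux1, Cux2 and Pou3f2 mark or specify the late-born callosal neurons of layers II to IV. In the neonatal cortex these genes are used to read how many neurons of each class are present and how far their identity has been set.

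Values were given as FPKM, fragments scaled to transcript length and library depth, so that levels of different genes can be set side by side. The steps between the lowest values gave an estimated depth of 8947250 to 9253000 fragments per library, and the 8 genes rested on 374 to 2479 estimated fragments each. The cortical label was checked against projection neuron markers, of which Neurod6 stood between 215.55 and 255.27 FPKM and Neurod2 between 45.38 and 67.45 FPKM. Emx2, a homeobox gene of the dorsal pallium, was low, between 1.54 and 2.95 FPKM, and no row was found for Emx1 by its symbol, so that this main pallial marker could not be checked. With 1 library per group, a difference within a sex has no replicate check. Fragment tests and their 95% intervals compare those libraries, not the conditions, and cover counting error only. In bulk tissue, fewer cells of a type and less RNA per cell cannot be told apart.

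All 8 genes were well above the floor of the tables, and their order changed little. Tbr1 was the highest in each library, Pou3f2, Sox5 and Foxp2 took the last places in that order, and Foxp2 was the lowest. Between them, Tle4 and Bcl11b overlapped in range, as did Fezf2 and Cux2, so neither pair could be ordered across the 4 libraries. The ratio of the highest to the lowest library ran from 1.05 for Bcl11b to 1.37 for Cux2.

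**Figure D1:**
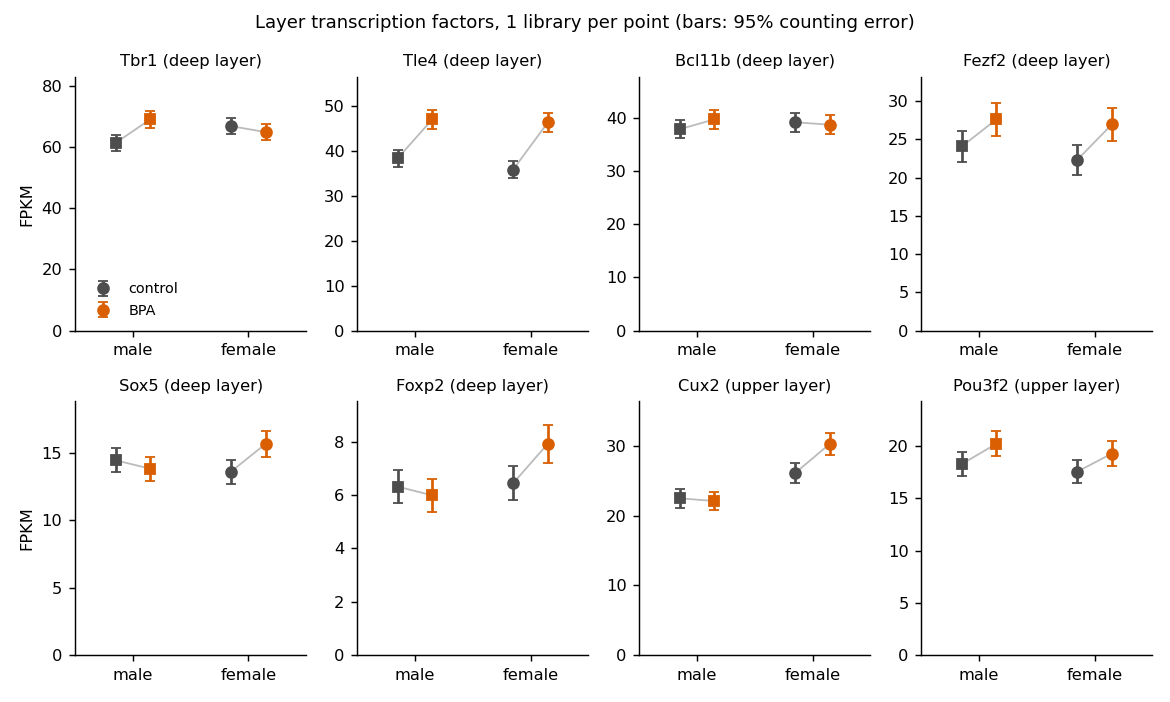
FPKM (y axis, from 0) of the 8 layer transcription factors in the 4 libraries, with squares for males, circles for females, grey for control and orange for BPA. Each point is 1 library, bars give 95% counting error, and grey lines join the libraries of a sex. In Tle4, Fezf2 and Pou3f2 both BPA libraries lie above both control libraries, and in Cux2 the female libraries lie above the male ones.

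Among the genes of layer V identity, Fezf2 and Bcl11b, the former stood higher in both BPA libraries and the latter hardly moved. Fezf2, a zinc-finger factor that selects the subcerebral fate, was at 24.08 FPKM in the control male, 27.62 in the BPA male, 22.34 in the control female and 26.98 in the BPA female. Both BPA libraries thus lay above both controls. The log2 ratio of BPA to control was 0.19 in males (95% counting interval 0.03 to 0.37, fragment test adjusted p = 0.0814) and 0.27 in females (0.10 to 0.45, adjusted p = 0.0132). Bcl11b, also called Ctip2, acts downstream of Fezf2 in layer V axon growth and is also strong in striatal projection neurons. It was at 37.95 FPKM in the control male, 39.80 in the BPA male, 39.25 in the control female and 38.79 in the BPA female. The groups overlapped, and both counting intervals held 0, with log2 ratios of 0.07 in males (-0.02 to 0.16) and -0.02 in females (-0.11 to 0.08).

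Of the layer VI genes, Tle4 showed the largest difference of the 8 in both sexes. Tle4, a Groucho-type co-repressor of corticothalamic neurons, was at 38.41 FPKM in the control male and 47.10 in the BPA male. It was at 35.92 FPKM in the control female and 46.41 in the BPA female. Both BPA libraries stood above both controls, by 22.6% in males and 29.2% in females. The log2 ratios were 0.29 (0.20 to 0.39, fragment test adjusted p = 6.08e-08) and 0.37 (0.27 to 0.47, adjusted p = 1.71e-11). Relative to Bcl11b in the same library, Tle4 was at 1.01 and 0.915 in the male and female controls, and at 1.18 and 1.20 in the BPA male and female. Bcl11b varied little, so this ratio largely restates the Tle4 values. The same ratio for Tbr1 overlapped, at 1.61 and 1.70 in the male and female controls and 1.73 and 1.67 in the BPA male and female.

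Tbr1, a T-box factor required for corticothalamic identity and for subplate and Cajal-Retzius cells, was at 61.28 FPKM in the control male, 69.00 in the BPA male, 66.79 in the control female and 64.84 in the BPA female. The BPA male was the highest and the control male the lowest, with both females between them. The log2 ratio was 0.17 in males (0.09 to 0.25, fragment test adjusted p = 0.000547) and -0.04 in females (-0.13 to 0.04, adjusted p = 0.576).

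Foxp2, a forkhead factor of layer VI neurons that is also strong in striatum, was at 6.32 FPKM in the control male, 5.99 in the BPA male, 6.45 in the control female and 7.93 in the BPA female. Sox5, which postpones subcerebral features in early-born neurons, was at 14.48 FPKM in the control male, 13.85 in the BPA male, 13.64 in the control female and 15.71 in the BPA female. In both genes the BPA female was the highest of the 4 libraries, and the BPA male was below the control male. For Foxp2 the log2 ratio was -0.07 in males (-0.29 to 0.13) and 0.28 in females (0.10 to 0.49, fragment test adjusted p = 0.0147). For Sox5 it was -0.06 in males (-0.19 to 0.07) and 0.20 in females (0.07 to 0.33, adjusted p = 0.0121).

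In the upper-layer group, Cux2, a homeodomain factor that promotes dendrite and spine growth in layers II to IV, was at 22.49 FPKM in the control male, 22.10 in the BPA male, 26.13 in the control female and 30.33 in the BPA female. Both females were above both males, and the BPA female was the highest. The log2 ratio was -0.02 in males (-0.15 to 0.10) and 0.21 in females (0.11 to 0.33, fragment test adjusted p = 0.00107). Pou3f2, also called Brn2, is a POU factor of late progenitors and upper-layer neurons. It was at 18.29 FPKM in the control male, 20.24 in the BPA male, 17.57 in the control female and 19.30 in the BPA female. Both BPA libraries lay above both controls by a similar margin, 10.7% in males and 9.85% in females, with fragment test adjusted p of 0.0857 and 0.137.

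Counted over the 8 genes, the fragment test called 2 of 8 in males, Tbr1 and Tle4, and 5 of 8 in females, namely Fezf2, Foxp2, Tle4, Sox5 and Cux2. All of these were higher in BPA. Over all rows the same test called 21.9% in males, with 8.69% higher in BPA, and 22.3% in females, with 8.32% higher in BPA. All rows include scarce ones that this test can hardly call. Among rows with at least 10 fragments in both libraries, it called 3323 of 13454 in males, 1300 of them higher. In females it called 3426 of 13371 such rows, 1276 of them higher. Once an assumed spread of 0.1 (coefficient of variation) was added to the counting error, 0 of 8 passed in either sex. Over all rows 3.97% then passed in the male pair and 5.27% in the female pair. With counting error alone the unadjusted p was under 0.05 for 4 of 8 genes in the male pair, against 30.9% of all rows, and for 6 of 8 in the female pair, against 31.9%. None of the 8 reached an absolute log2 ratio of 1, which 4.28% of rows did in males and 5.15% in females.

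Both BPA libraries were above both controls in 3 of 8 genes, Fezf2, Tle4 and Pou3f2, and below them in 0 of 8. Among 13163 rows with a mean FPKM of at least 1, 18.7% had both BPA libraries higher and 31.9% had both lower. The male and female libraries of a treatment may come from the same litters, so the sexes may not be independent replicates. With the sexes as replicates, limma called 0 of 8 at an adjusted p under 0.05, against 0.562% of rows, and 2 of 8 had an unadjusted p under 0.05 and stood higher in BPA, against 5.31% of rows. These were Tle4 at a log2 ratio of 0.33 (SE 0.0655, n = 2 libraries per treatment, limma adjusted p = 0.1) and Fezf2 at 0.23 (SE 0.0739, limma adjusted p = 0.21). When each library was centred on its median, Pou3f2 joined them to give 3 of 8 higher at an unadjusted p under 0.05, against 1318 of the 13163 rows, and after quantile normalization it was again 2 of 8, against 8.31%. In the fit without centring or quantile normalization, Pou3f2 was at 0.14 (SE 0.0771, limma adjusted p = 0.402). Bcl11b, Tbr1, Foxp2, Sox5 and Cux2 lay between 0.03 and 0.10 in that fit. Among rows with an NCBI Gene ID alone, of which limma called 4.49%, Tle4 passed with an adjusted p of 0.0328, and over all alternatives its adjusted p ran from 0.0328 to 0.398.

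The male and the female pair differed for 4 of the 8 genes by more than counting error, as did 21.4% of 12974 rows with a mean FPKM of at least 1 and fragments in each library. The male log2 ratio exceeded the female one by 0.21 in Tbr1 (0.10 to 0.33). In Foxp2 the male minus female difference was -0.35 (-0.66 to -0.10), in Sox5 it was -0.26 (-0.45 to -0.09) and in Cux2 it was -0.24 (-0.40 to -0.08). For Tle4 and Fezf2 the difference was -0.07 each, for Bcl11b 0.08 and for Pou3f2 0.01, and these 4 intervals held 0. With 1 library per sex and treatment, no test of whether the response differed between the sexes was possible.

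**Figure D2:**
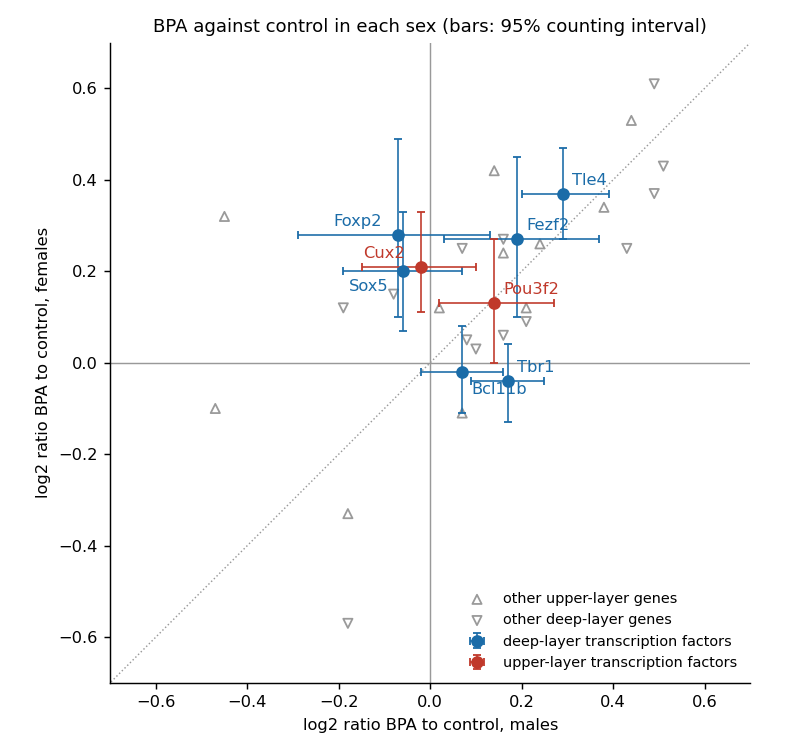
Log2 ratio of BPA to control in males (x axis) and in females (y axis). Filled points are the deep-layer (blue) and upper-layer (red) transcription factors with 95% counting intervals, open triangles are other layer genes, and the dotted line marks equal ratios. Tle4, Fezf2 and Pou3f2 lie above 0 in both sexes, Foxp2, Sox5 and Cux2 lie above 0 in females and just below it in males, and Tbr1 and Bcl11b lie the other way.

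Within a treatment, the female and the male library were also compared. In the controls the fragment test called 2 of 8 genes, Tbr1 and Cux2, which were higher in the female by 0.12 and 0.21 on the log2 scale, against 10.4% of all rows. In the BPA libraries it called 3 of 8, Foxp2, Sox5 and Cux2, which were higher in the female by 0.38, 0.18 and 0.45, against 12.8% of rows. Cux2 was thus higher in the female library in both treatments. With the coefficient of variation of 0.1 added, 0 of 8 were called between the sexes in either treatment. In limma, Cux2, Foxp2 and Sox5 took log2 ratios of -0.13, -0.09 and -0.02 without the BPA female library, and Cux2 took -0.01 without the control male.

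The deep-layer and upper-layer groups were compared by their medians, with no test. In males the median log2 ratio was 0.12 over the 6 deep-layer genes and 0.06 over the 2 upper-layer genes. In females it was 0.23 and 0.17, so the deep minus upper difference was 0.06 in each sex. The median over all rows was -0.04 in both sexes. Single deep-layer genes ran from -0.07 to 0.29 for males and from -0.04 to 0.37 for females. With Cux1 added to the upper-layer group the difference was -0.02 in males and 0.02 in females. This Cux1 value rests almost wholly on short transcripts whose protein is not known, described next. As a ratio of geometric means, deep over upper, the log2 value was 0.25 in the control male, 0.29 in the BPA male and 0.16 in both females.

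Cux1, the close relative of Cux2 in layers II to IV, was found only as 8 assembled transcripts, 7 of which were listed in the female libraries. Of these, 4 were long, at 12193 to 12562 bases, and 4 were short, at 1611 to 1809 bases. The locus is known to give, beside the homeodomain factor, a shorter Golgi membrane protein that lacks the DNA-binding domains. The annotation does not say which protein the short rows encode, and 1 of them was matched to a mouse record. The counting may have split fragments among overlapping transcripts, so the rows were summed by length.

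The long Cux1 rows summed to 4.38 FPKM in the control male, 4.12 in the BPA male, 5.07 in the control female and 4.98 in the BPA female. The groups overlapped, and both counting intervals held 0, with log2 ratios of -0.08 (-0.27 to 0.10) in males and -0.02 (-0.20 to 0.14) in females. The short rows summed to 70.85 FPKM in the control male, 85.91 in the BPA male, 76.32 in the control female and 95.15 in the BPA female. Both BPA sums were above both control sums, with log2 ratios of 0.28 (0.16 to 0.40) in males and 0.32 (0.21 to 0.44) in females. Among rows with a mean FPKM of at least 1, 18.7% had both BPA libraries higher. The short row of isoform CRA_c went from 7.44 FPKM in the control male to 6.82 in the BPA male, and from 6.32 to 9.89 in the female libraries. Summed over all 8 rows, limma gave a log2 ratio of 0.28 (SE 0.0783, adjusted p = 0.175).

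Within the long rows, transcripts annotated as different isoforms went in opposite directions. How fragments were apportioned among them was not tested. The row annotated as isoform X3 was at 0.42 FPKM in the control male and 1.31 in the BPA male, and at 1.30 and 1.65 in the female libraries. The row of isoform X2 was at 3.38 FPKM in the control male and 2.55 in the BPA male, and at 3.75 and 3.33 in the female libraries. In males the fragment test gave an adjusted p of 5.18e-12 for X3 and 0.00240 for X2, and in females 0.123 and 0.276, and limma called neither (adjusted p = 0.47 and 0.544). The X5 row was at 0.58 FPKM in the control male and 0.24 in the BPA male (fragment test adjusted p = 0.00101).

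**Figure D3:**
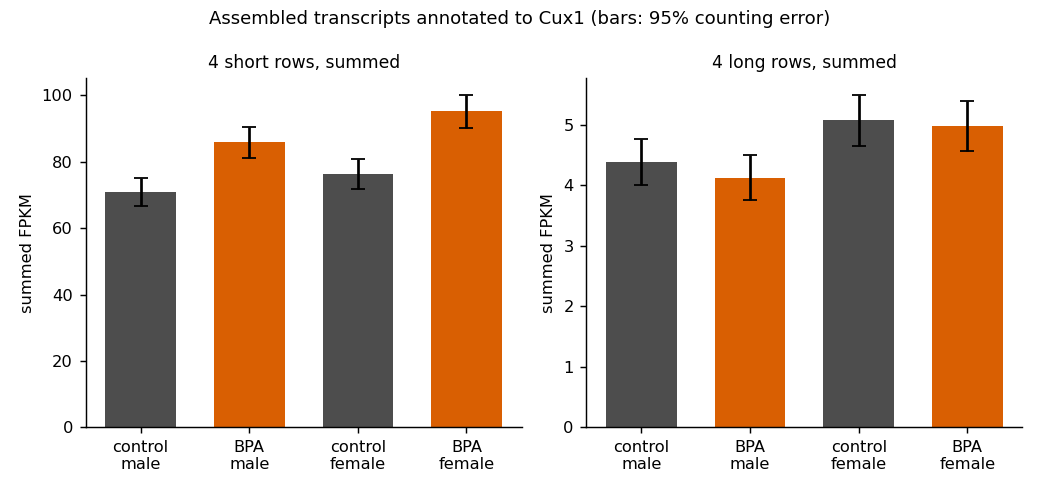
Summed FPKM (y axes, from 0, on different scales) of the 4 short and the 4 long assembled transcripts annotated to Cux1, with grey bars for control and orange bars for BPA, 1 library each, and error bars for 95% counting error. The short rows are higher in the BPA library of each sex (85.91 against 70.85 FPKM in males, 95.15 against 76.32 in females), and the long rows are within counting error.

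Further genes that mark the layers were counted in the same way. Of 11 other upper-layer genes, 8 were above and 3 below control in each sex, with medians of 0.14 in males and 0.24 in females, and 6 of 11 had both BPA libraries above both controls. Of 13 other deep-layer genes with a row, 10 were above control in males and 12 in females, with medians of 0.16 and 0.15, and 6 of 13 had both BPA libraries above both controls. The share of all rows that did so is the 18.7% given above. Limma called 0 of these 24 genes. The most abundant upper-layer gene was Lmo4, a LIM-only cofactor, at a limma log2 ratio of -0.02 (adjusted p = 0.913). By the mean of the 4 libraries, the most abundant deep-layer genes were Rprm, a layer VI marker, at 0.22 (limma adjusted p = 0.179), and Pcp4, at 0.55 (limma adjusted p = 0.0692). Pcp4 took that place through its BPA libraries, since Crym, at 0.07 (limma adjusted p = 0.591), was above it in both controls, with 77.45 against 63.36 FPKM in males and 77.87 against 67.90 FPKM in females.

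Markers of other cells differed with the treatment in the same libraries. Limma calls named here and in the next paragraph stand against the 0.562% of rows called, and 0 rows were called without the BPA male library, without the BPA female library, with no filter on low values or with no trend in the prior variance. All 12 meningeal and vessel-wall genes were lower in BPA in both sexes, limma called 7 of 12 lower, and their summed FPKM was 481.1 and 628.2 in the male and female controls against 217.3 and 149.1 in the BPA libraries. The study's methods state that the meninges were taken off. Of 15 striatal genes tested, 12 were higher in BPA in males and 11 in females, and limma called Rxrg (log2 ratio 1.79, adjusted p = 0.0253) and Penk (0.64, adjusted p = 0.046). The 16 listed striatal genes summed to 254.2 and 254.9 FPKM in the male and female controls and to 309.0 and 319.4 in the BPA libraries. The dopamine receptor Drd2 was at 4.25 and 3.96 FPKM in the male and female controls and at 7.93 and 7.51 in the BPA libraries (limma log2 ratio 0.84, adjusted p = 0.0628). Drd1 was at 2.70 and 3.42 FPKM in the controls and at 4.15 and 4.27 in the BPA libraries (0.41, limma adjusted p = 0.3). Of 4 olfactory bulb projection neuron genes, 3 were listed and only 1, Cdhr1, was tested. Cdhr1 was lower in BPA by a limma log2 ratio of -2.04 (adjusted p = 0.00834). The scarcer genes went opposite ways. Tbx21 was at 1.74 and 0.85 FPKM in the male and female controls and at 0.01 and 0.05 in the BPA libraries. Doc2g was at 0.38 and 0.31 FPKM in the controls and at 0.69 and 0.47 in the BPA libraries. The part of these markers in the values of Tle4, Fezf2, Foxp2 and the other layer genes was not tested.

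General and early-born neuron markers were mixed. Of 6 neocortical projection neuron genes, 3 were above and 3 below control in each sex, and limma called Neurod2, a neuronal differentiation factor, higher (0.50, adjusted p = 0.0481) and Slc17a7, the vesicular glutamate transporter, lower (-0.79, adjusted p = 0.0274). Of 5 subplate genes, 2 were above control in males and 1 in females, with medians of -0.27 and -0.22. Limma called Lpar1 lower (-1.43, adjusted p = 0.0435). Cplx3, at 0.65 to 1.70 FPKM, was higher in BPA in both sexes (0.49, limma adjusted p = 0.52). Of 3 Cajal-Retzius genes tested, 2 were below control in males and 3 in females, with medians of -0.18 and -0.46. Limma called Calb2 lower (-1.20, adjusted p = 0.0274), and Tp73 was at -0.32 (limma adjusted p = 0.623). Reln was at 31.16 FPKM in the control male, 36.96 in the BPA male, 40.83 in the control female and 37.83 in the BPA female. Tbr1, which these cells share with layer VI, overlapped between the treatments as given above.

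**Figure D4:**
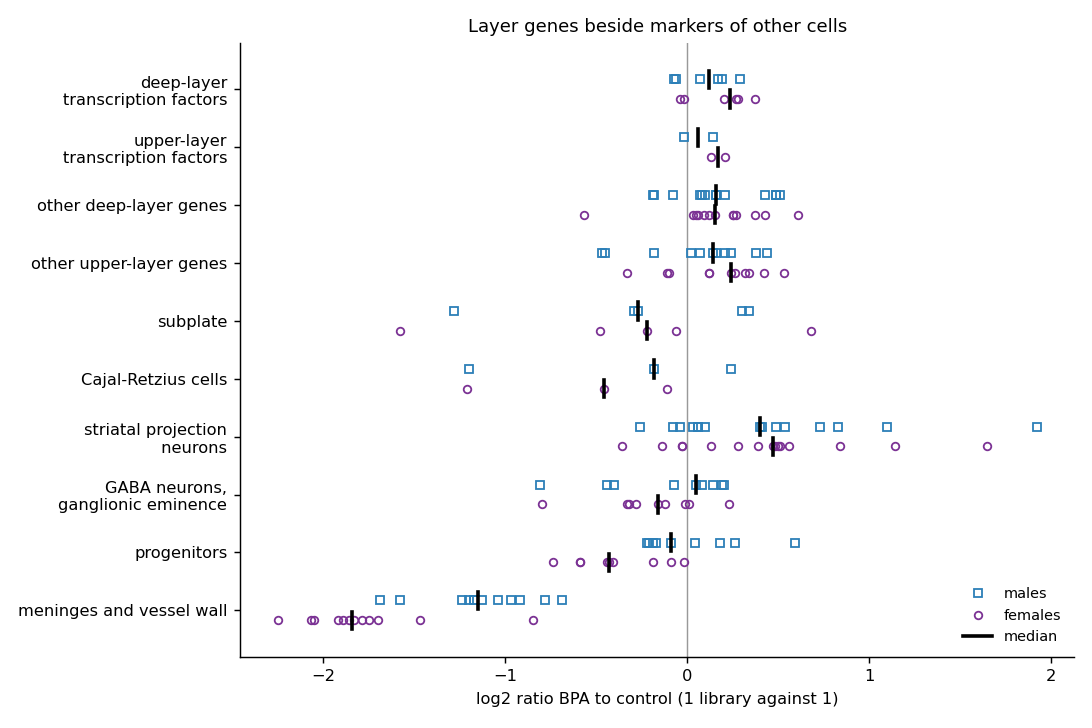
Log2 ratio of BPA to control (x axis) for each gene of the lists on the y axis, with squares for males, circles for females and black ticks for the median of a list. The deep-layer and upper-layer transcription factors and the other layer genes have medians between 0.06 and 0.24, the striatal genes 0.40 and 0.47, and the meningeal genes -1.15 and -1.85.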

How the data were processed

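RNA from frontal cortex was sequenced after poly(A) selection, 1 library for each sex and treatment. The authors deposited FPKM per gene, made with HISAT, Bowtie2 and RSEM on rn6 according to the submitters' processing notes. Versions are not given in the sources used here. Unnamed rows are transcripts they assembled. The genes and lists were chosen with earlier results of these data known.

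From the deposited FPKM, log2 ratios were taken after adding 0.5. Depth was estimated from the spacing of scarce values, where 82.3% to 83.8% of values lay within 0.1 of a whole fragment (20% if evenly spread). Fragments so recovered (length less 60 bases) were compared between 2 libraries by an exact test, with Benjamini-Hochberg adjustment over all rows. This test was an approximation, since the tables hold no counts. Limma 3.58.1 (R 4.3.3) on log2(FPKM + 0.5) compared treatments with the sexes as replicates, with 2 residual degrees of freedom, over rows with a mean FPKM of at least 1. All transcription factors were named. Of each further list, genes called by limma, or otherwise the 2 most abundant, were named, except for some that are not reported here. The lists were layer, projection neuron, subplate, Cajal-Retzius, striatal, GABA, olfactory bulb, progenitor, oligodendrocyte, meningeal and hindbrain genes. Cplx3, Crym, Doc2g, Drd1, Drd2, Emx2, Neurod6, Reln, Tbx21 and Tp73 were named outside that rule, after their values were seen. The authors' annotation columns gave gene names, and Python 3.11.15 was used.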

Additional observations from a re-analysis of the deposited data

Results flagged for a closer look

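In 5 of the 8 genes the log2 ratio of BPA to control had opposite signs in males and females. The male minus female difference was 0.08 in Bcl11b, 0.21 in Tbr1, -0.35 in Foxp2, -0.26 in Sox5 and -0.24 in Cux2. The difference itself was not tested, because each sex and treatment had 1 library. Over the 13163 rows with a mean FPKM of at least 1, 33.5% had ratios of opposite sign. After centring on the median log2 ratio, 2 of the 8, Foxp2 and Sox5, still had opposite signs, against 33.8% of rows. Bcl11b was then at 0.11 in males and 0.03 in females, Cux2 at 0.01 and 0.25, and Tbr1 at 0.21 and 0.00.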

How the results depend on the processing

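Each single-pair ratio of the 8 genes, and each male minus female difference, moved by less than its counting error under pseudocounts of 0.1 and 1, and the ratios also after centring on the median, which took Bcl11b and Tbr1 in females and Cux2 in males from below 0 to 0.03, 0.00 and 0.01. Summing rows by gene changed Cux1 alone and took the deep minus upper difference in males to -0.02. In limma, Tle4 (0.33) passed the threshold among rows with an NCBI Gene ID alone, and no other gene of the 8 passed under any alternative. Leaving out each library in turn gave -0.13 to 0.32 for Cux2, -0.09 to 0.29 for Foxp2 and -0.02 to 0.16 for Sox5, with the lone library assumed to vary like the others. Limma called 74 rows (2283 at an unadjusted p under 0.05), 477 among rows with an NCBI Gene ID, 26 after quantile normalization, and 0 to 6 with 1 library left out, 0 without the BPA male (1809 unadjusted) and 0 without the BPA female (1899). It called 0 with no filter (2628 unadjusted) and 0 with no trend (2055). The fragment test called 666 and 886 rows in males and females with the coefficient of variation, and 2333 and 2455 among rows with an NCBI Gene ID. Rows past an absolute log2 ratio of 1 numbered 1804 and 2121 with a pseudocount of 0.1, 397 and 504 with 1, 404 and 529 at a mean FPKM of at least 1, and 201 and 329 among rows with an NCBI Gene ID. The cause of these changes was not tested. With 1 library per group, spread between animals is not measured. Adding sex as a term to limma, the only pairing the labels allow, called 86 rows and none of the 8 genes.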

Other observations

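The remaining cell groups of the same tissue gave the following values. Of 9 progenitor genes tested, 4 were above control in males and 0 in females, and limma called 0 of 9. Fabp7, the radial glial fatty acid binding protein, was at 532.55 FPKM in the control male, 457.14 in the BPA male, 515.56 in the control female and 383.37 in the BPA female (limma log2 ratio -0.32, adjusted p = 0.183). Vim, an intermediate filament of the same cells, was at a limma log2 ratio of -0.39 (adjusted p = 0.191). Both BPA libraries were below both controls in 4 of the 9 genes, these 2 among them, against 31.9% of rows.

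Of 9 GABA neuron and ganglionic eminence genes tested, 5 were above control in males and 2 in females, with medians of 0.05 and -0.16, and limma called 0. Dlx1, the most abundant of them, stood at a limma log2 ratio of -0.38 (adjusted p = 0.0938). Of 5 oligodendrocyte lineage genes, 3 were above control in males and 0 in females, with medians of 0.20 and -0.12. Limma called 0, with a median of 0.06 over the list, and the 2 most abundant genes were lower than that median, with Olig1 at -0.30 (adjusted p = 0.157) and Pdgfra at -0.34 (adjusted p = 0.182). Of 6 hindbrain and midbrain genes, only 1 was listed, at no more than 0.05 FPKM.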
